A study of Mus musculus with 15 samples.

Results

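The effect of parathyroid hormone-related protein (PTHrP) was set side by side in a pair of embryonic mouse tissues, the mammary bud and the ventral skin, and the difference between the 2 effects was tested across the transcriptome. The 12 arrays used are those of the 4 groups that carry a PTHrP contrast, 3 arrays in each, out of 15 in the series; the other 3, of WT ventral skin outside the transgenic comparison, entered the fit for the estimate of the spread and for the filter on low values. RNA was measured on MOE430A arrays, which read each transcript through a set of short probes (a probe set), in tissue dissected from CD-1 embryos on embryonic day 15. Of the bud groups, 1 came from wild-type (WT) embryos and 1 is labelled PTHrP-/-. Of the skin groups, 1 is labelled K14-PTHrP, a transgene in which the keratin promoter K14 places PTHrP in the basal epidermis, and the other, K14WT, is the WT ventral skin set against it. Embryos of 1 genotype were pooled ahead of the RNA preparation. No label tells whether a group's 3 arrays stem from different pools, so p-values reflect only how these preparations vary, which may be technical. Precision is limited by the number of arrays.

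In the embryo, PTHrP is secreted by mammary bud epithelium and acts on the surrounding mesenchyme through the receptor PTH1R, a G protein-coupled receptor that raises cyclic AMP. Without this signal the dense mammary mesenchyme does not form properly, the sexual dimorphism and outgrowth of the bud fail, and the overlying skin does not form a nipple. When basal keratinocytes of the ventral surface are made to secrete PTHrP, ventral skin takes on features of nipple skin.

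The bud effect is the level in WT buds minus that in the buds labelled PTHrP-/-, and the skin effect is the level in skin labelled K14-PTHrP minus that in K14WT skin, so a positive value in either tissue means a higher level where the labels place PTHrP. The difference is the bud effect minus the skin effect, and the mean effect is the average of both. All levels are log2 GC-RMA values, each effect is a log2 difference given with its standard error (SE) from the fit, 3 arrays per group, and every adjusted p is limma's, corrected by the Benjamini-Hochberg method over all probe sets tested in that comparison. The 2 effects share no array. The bud groups differ by loss of PTHrP, and the skin groups by a transgene that adds it. A difference between the tissues therefore cannot be told apart from a difference between these manipulations.

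The gene for PTHrP itself, Pthlh, was read by 1 probe set, and neither labels nor files place that probe set relative to the deletion or the transgene, so it is no check of either label. Its levels were 4.87, 5.85 and 5.57 in WT buds and 6.81, 6.28 and 6.11 in the buds labelled PTHrP-/-. In skin they were 4.38, 3.86 and 4.23 in K14WT and 3.60, 3.64 and 3.39 in K14-PTHrP. Every WT bud array therefore read below every array labelled PTHrP-/-, and every array labelled K14-PTHrP below every K14WT array, the opposite of the labelled amount of PTHrP in both tissues. Neither the bud effect of -0.97 ± 0.24 (adjusted p = 0.211) nor the skin effect of -0.61 ± 0.24 (adjusted p = 0.368) passed the test, and their difference of -0.36 ± 0.34 did not either (adjusted p = 0.805). Directions below accordingly rest on the labels. The receptor gene Pth1r read 8.24, 8.22 and 8.86 in WT buds, 8.73, 8.72 and 8.61 in the buds labelled PTHrP-/-, 8.35, 7.73 and 7.83 in K14WT skin and 7.89, 7.71 and 9.09 in K14-PTHrP skin. The groups overlapped in both tissues, and the difference of -0.51 ± 0.42 did not pass (adjusted p = 0.772).

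Each bud array correlated best with an array of its own group, across probe sets. The skin arrays of the transgenic comparison were less uniform. K14WT replicate 1 correlated best with K14-PTHrP replicate 1 (r = 0.991), K14-PTHrP replicate 2 with K14WT replicate 3 (r = 0.986), and K14-PTHrP replicate 3 with replicate 1 of the buds labelled PTHrP-/- (r = 0.984, against 0.964 to 0.976 with its own group). In that last array 670 probe sets (5.73%) lay over 1 log2 unit from the mean of the other arrays of its group, where the bud arrays had 10 to 41 such probe sets. The median within-group SD was 0.128 for WT buds, 0.115 for those labelled PTHrP-/-, 0.178 for K14WT skin and 0.202 for K14-PTHrP skin. Because the fit pools the spread, an SE can be too large for the bud effect and too small for the skin effect. For that reason counts and the differences named below are also given without K14-PTHrP replicate 3.

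Large changes with PTHrP were more numerous in skin than in buds. The skin effect was over 1 log2 unit in size for 103 probe sets and the bud effect for 20, while the median size over all 11690 probe sets tested was 0.146 in skin and 0.162 in buds. In the test of each effect alone, 83 probe sets passed in skin (0.71% of those tested; 60 higher, 0.513%, and 23 lower, 0.197%) and 4 in buds (0.0342%; 2 higher and 2 lower, 0.0171% each), with 1647 at an unadjusted p under 0.05 in buds and 1382 in skin. Of the 11690 tested, 95 passed the filter on low values only through the K14-PTHrP arrays, which favours higher values in that skin. Their share of these skin counts is not given here. The difference between the tissues passed for 20 probe sets, 0.171% of those tested, with 4 positive (0.0342%) and 16 negative (0.137%). That split was 12 and 16 without K14WT replicate 1, and with array weights, which called far more probe sets, it was 136 and 70. Of these 20, 17 also passed in skin alone, 2 in buds alone and 1 in neither. The mean effect passed for 77 probe sets (0.659%), 59 of them higher with PTHrP (0.505%) and 18 lower (0.154%). Of the 77, 4 passed the filter on low values only through the K14-PTHrP arrays, all of them higher. Without these the mean effect counts 73 probe sets, 55 higher and 18 lower. With each array centred on its median instead, which moved the median of all mean effects by 0.08, 136 were higher and 12 lower. Without K14-PTHrP replicate 3, 27 probe sets passed for the difference, 17 of the 20 among them, 91 for the mean effect, 66 of the 77 among them, and 71 for the skin effect, 48 of the 83 among them.

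**Figure D1:**
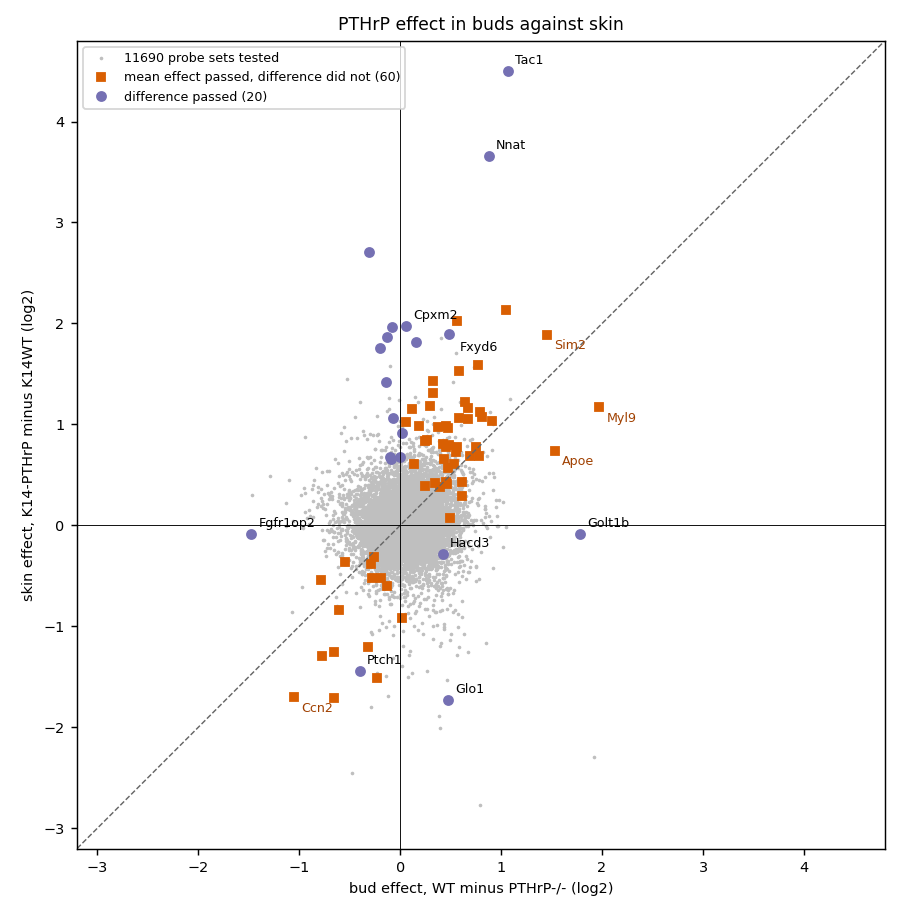
The bud effect (x axis, WT minus PTHrP-/-, log2) is plotted against the skin effect (y axis, K14-PTHrP minus K14WT, log2) for the 11690 probe sets tested. Circles mark the 20 probe sets whose effects differed between the tissues, squares the 60 that passed for the mean effect and not for the difference, and the dashed line equal effects; Tac1 and Nnat lie at skin effects of 4.50 and 3.66, and Golt1b and Fgfr1op2 lie near 0 on the skin axis.

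Of the 20 probe sets, 9 carry a gene name, and all 9 are named from lists that the authors drew from these same arrays for differences between the bud groups or between WT skin and WT buds. A probe set on none of these lists has no name here, which was the case for 11 of the 16 negative ones and 0 of the 4 positive ones. The upstream 250 bases of 4 of the named genes, which hold the largest negative and the largest positive differences and the hedgehog receptor gene, are printed first (RefSeq, GRCm38.p6, 5′ to 3′ on the gene's strand). Capitals mark the core of the cyclic AMP response element, TGACG or its reverse complement CGTCA, since PTH1R raises cyclic AMP.
Tac1, chr6:7554811-7555060, plus strand: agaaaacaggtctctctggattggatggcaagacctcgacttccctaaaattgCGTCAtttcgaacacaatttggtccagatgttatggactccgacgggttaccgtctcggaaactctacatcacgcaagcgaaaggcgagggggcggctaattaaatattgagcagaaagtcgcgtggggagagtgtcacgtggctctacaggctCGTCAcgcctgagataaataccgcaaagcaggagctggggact
Nnat, chr2:157559828-157560077, plus strand: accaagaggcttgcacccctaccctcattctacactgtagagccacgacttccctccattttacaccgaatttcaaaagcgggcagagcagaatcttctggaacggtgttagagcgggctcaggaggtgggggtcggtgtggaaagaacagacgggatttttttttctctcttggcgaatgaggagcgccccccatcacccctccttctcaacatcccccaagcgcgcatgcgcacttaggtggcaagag
Glo1, chr17:30612660-30612909, minus strand: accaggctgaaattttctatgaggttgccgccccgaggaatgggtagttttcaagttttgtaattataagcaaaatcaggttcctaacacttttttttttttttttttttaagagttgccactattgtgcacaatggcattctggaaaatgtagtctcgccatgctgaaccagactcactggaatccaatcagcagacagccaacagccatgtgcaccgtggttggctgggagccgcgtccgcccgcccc
Ptch1, chr13:63565736-63565985, minus strand: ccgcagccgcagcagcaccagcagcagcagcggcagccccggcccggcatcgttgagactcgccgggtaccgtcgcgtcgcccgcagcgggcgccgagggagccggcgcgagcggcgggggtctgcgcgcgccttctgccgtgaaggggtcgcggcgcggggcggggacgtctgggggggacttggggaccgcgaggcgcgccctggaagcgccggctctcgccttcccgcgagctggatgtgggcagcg
The Tac1 window holds 2 such cores, beginning 197 and 43 bases before the start, and the other 3 windows hold none. Of the 32851 promoter windows of this length in the table, 17.8% hold this core on either strand. The full element TGACGTCA, which contains the core, is in 1.55% of windows and in none of these 4, and the GLI core GACCACCCA, the letters read by hedgehog's transcription factors, is in 0.225% and not in the Ptch1 window. The windows of Cpxm2, Fxyd6, Fgfr1op2, Hacd3 and Golt1b hold none of these letters either. A match of letters is a description of the window and not a measured site.

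Tac1, which encodes the precursor of the neuropeptides substance P and neurokinin A, rose further in skin than any other named gene. Its levels were 4.69, 4.98 and 4.63 in K14WT skin and 9.12, 9.95 and 8.74 in K14-PTHrP skin, and 5.41, 6.18 and 5.55 in WT buds against 4.58, 4.70 and 4.66 in the buds labelled PTHrP-/-. Arrays with PTHrP lay above those without in both tissues, and the transgenic skin arrays stood far above every bud array. The skin effect of 4.50 ± 0.25, a 22.6-fold difference (adjusted p = 9.43e-07), exceeded the bud effect of 1.07 ± 0.25 (adjusted p = 0.209). The difference was -3.43 ± 0.36 (adjusted p = 0.00114), and -3.70 without K14-PTHrP replicate 3 (adjusted p = 0.000121). In the 3 arrays of WT skin outside the transgenic comparison Tac1 read 4.57, 4.41 and 4.48, close to the K14WT arrays.

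Nnat, an imprinted gene for a small membrane proteolipid of the endoplasmic reticulum, had the same shape. It read 7.62, 6.65 and 6.71 in K14WT skin, 10.73, 10.25 and 10.97 in K14-PTHrP skin, 7.85, 8.14 and 8.80 in WT buds and 7.37, 7.56 and 7.24 in the buds labelled PTHrP-/-. Groups did not overlap in either tissue. The skin effect of 3.66 ± 0.30 (adjusted p = 4.16e-05) and the bud effect of 0.88 ± 0.30 (adjusted p = 0.256) differed by -2.78 ± 0.42 (adjusted p = 0.0194). This call was lost in 7 of the 15 fits that left out 1 array, those without WT bud replicates 1 or 2, PTHrP-/- bud replicates 1 or 2, K14WT replicates 2 or 3, or K14-PTHrP replicate 1 (adjusted p = 0.0518 to 0.0902).

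Fxyd6, a member of the FXYD family of regulators of the sodium pump, was high in the transgenic skin and low in the other groups. Its levels were 5.65, 5.48 and 5.91 in K14-PTHrP skin and 3.84, 3.81 and 3.71 in K14WT skin, and 4.12, 4.67 and 4.67 in WT buds against 3.96, 4.10 and 3.94 in the buds labelled PTHrP-/-. All 3 K14WT arrays read below their own array's median. The skin effect of 1.89 ± 0.16 (adjusted p = 4.16e-05) and the bud effect of 0.48 ± 0.16 (adjusted p = 0.25) differed by -1.41 ± 0.22 (adjusted p = 0.0237). The call was lost in 6 of 15 fits, those without any 1 PTHrP-/- bud array, K14WT replicates 2 or 3, or K14-PTHrP replicate 1 (adjusted p = 0.0518 to 0.109).

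Cpxm2 encodes a carboxypeptidase-like protein of the M14 family. In skin it read 5.69, 4.75 and 5.40 in K14WT and 7.13, 7.25 and 7.37 in K14-PTHrP, while in buds it read 5.01, 5.16 and 5.23 in WT and 5.11, 5.31 and 4.81 in those labelled PTHrP-/-. The skin groups stood apart and the bud groups overlapped. WT skin outside the transgenic comparison read 6.89, 6.89 and 7.41, close to the transgenic arrays rather than to K14WT, although both are labelled WT ventral skin. The skin effect was 1.97 ± 0.22 (adjusted p = 0.000422), the bud effect 0.06 ± 0.22 (adjusted p = 0.912) and the difference -1.92 ± 0.30 (adjusted p = 0.0262). It was lost in 7 of 15 fits, those without any 1 WT bud array, PTHrP-/- bud replicates 1 or 2, K14WT replicate 3 or K14-PTHrP replicate 1 (adjusted p = 0.0518 to 0.112).

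The 11 unnamed probe sets had skin effects that ran from 0.66 to 2.70, each past the test in skin alone, and bud effects from -0.30 to 0.16. In all 11 every K14-PTHrP array also lay above every array of WT skin outside the transgenic comparison. Their choice through the same K14-PTHrP arrays favours this, and the share over all probe sets is not given here. In 4 of the 11 all K14WT arrays read below their array's median. These 4 exceeded their array's median on fewer than 3 arrays outside K14-PTHrP skin, so they passed the filter on low values only through the group where they are high and had to differ there. Without them the difference counts 16 probe sets, 4 positive and 12 negative. The probe set 1418507_s_at read 4.40, 4.03 and 4.44 in K14WT and 7.20, 7.01 and 6.77 in K14-PTHrP, with 4.27 to 4.41 in WT buds and 4.48 to 4.83 in the buds labelled PTHrP-/-. Its skin arrays were far apart, and its difference of -3.01 ± 0.20 (adjusted p = 1.53e-05) had the smallest p-value of the 20. The probe set 1423933_a_at read 4.30, 4.33 and 4.42 in K14WT and 6.15, 5.95 and 6.84 in K14-PTHrP, with 4.23 to 4.36 in all 6 bud arrays, and differed by -2.05 ± 0.24 (adjusted p = 0.00334).

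**Figure D2:**
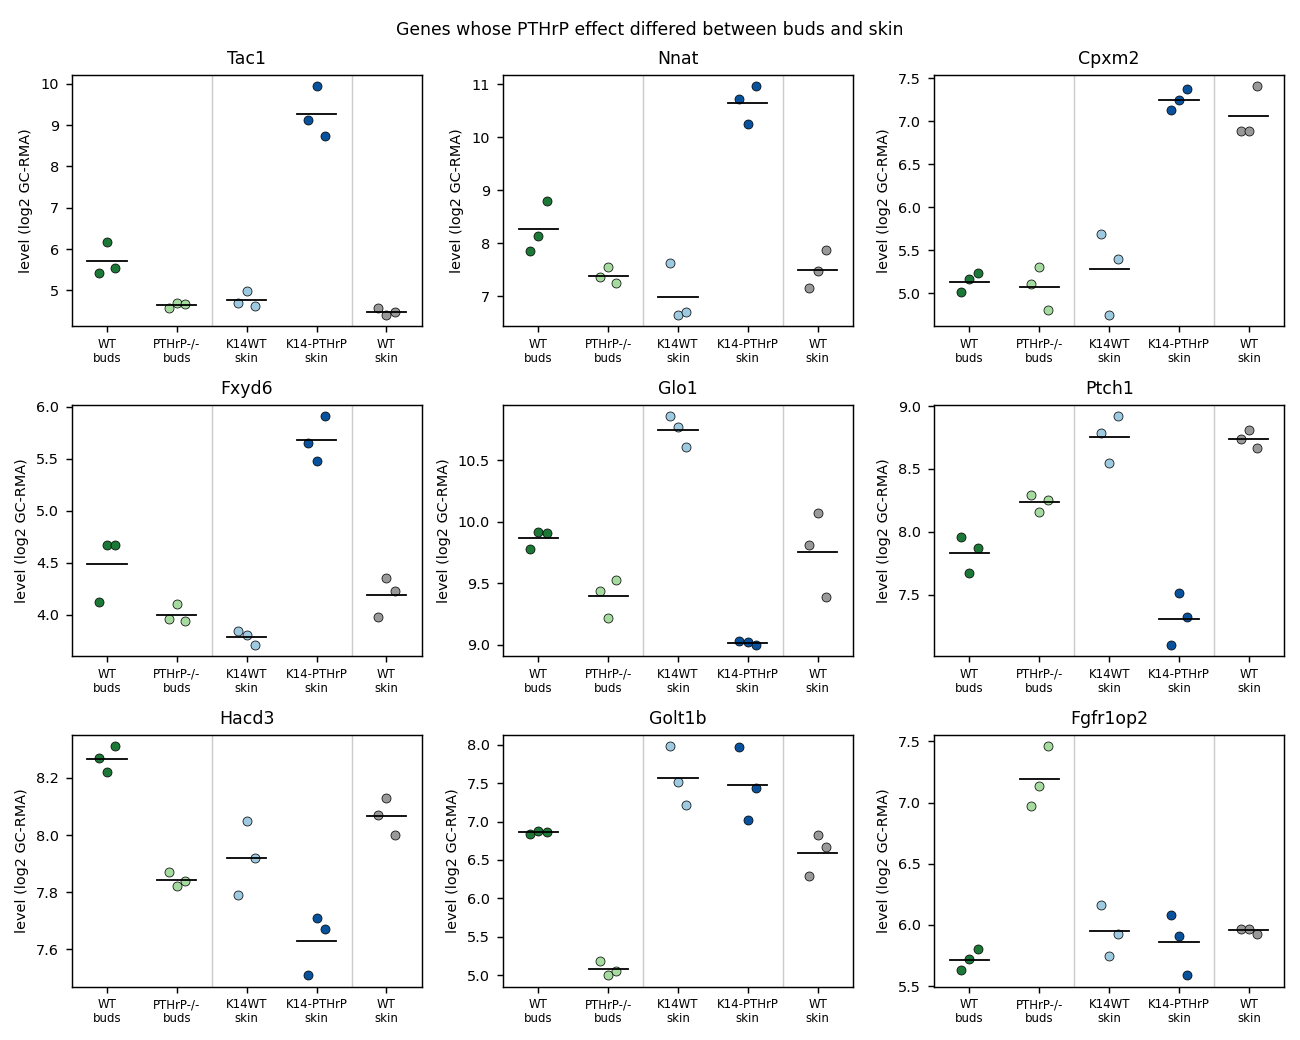
Each panel gives the log2 GC-RMA level of 1 of the 9 named genes whose effects differed between the tissues, in 3 arrays per group, with a horizontal line at the group mean; WT skin on the right is outside the comparison. Tac1, Nnat, Cpxm2 and Fxyd6 are high in K14-PTHrP skin, Glo1 and Ptch1 low there, and Golt1b and Fgfr1op2 separate the bud groups and not the skin groups.

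Glo1, which encodes glyoxalase I, the enzyme that clears methylglyoxal, had effects of opposite sign. Its levels were 10.86, 10.77 and 10.61 in K14WT skin and 9.03, 9.02 and 9.0 in K14-PTHrP skin, and 9.78, 9.92 and 9.91 in WT buds against 9.44, 9.22 and 9.53 in the buds labelled PTHrP-/-. Skin arrays with PTHrP were all lower and bud arrays with PTHrP all higher. The skin effect of -1.73 ± 0.15 (adjusted p = 4.16e-05) and the bud effect of 0.47 ± 0.15 (adjusted p = 0.247) differed by 2.20 ± 0.21 (adjusted p = 0.000489). A second Glo1 probe set, 1424108_at, had skin and bud effects of the same signs, -1.14 ± 0.22 and 0.50 ± 0.22. Its difference of 1.63 ± 0.32 did not pass (adjusted p = 0.093), nor did it in 22 of 25 alternative fits (adjusted p up to 0.283). Without K14-PTHrP replicate 3 it was 1.98 and passed (adjusted p = 0.000129), while without K14-PTHrP replicate 1 it did not pass (adjusted p = 0.18). WT skin outside the comparison read 9.81, 10.07 and 9.39 on the first probe set, between the K14WT and K14-PTHrP arrays.

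Ptch1, the hedgehog receptor and itself a transcriptional target of that pathway, was lower with PTHrP in both tissues and more so in skin. It read 8.79, 8.55 and 8.92 in K14WT and 7.10, 7.51 and 7.32 in K14-PTHrP skin, and 7.96, 7.67 and 7.87 in WT buds against 8.29, 8.16 and 8.25 in the buds labelled PTHrP-/-. No array with PTHrP reached the level of one without it in the same tissue. The skin effect of -1.44 ± 0.12 (adjusted p = 4.16e-05) and the bud effect of -0.40 ± 0.12 (adjusted p = 0.247) differed by 1.04 ± 0.17 (adjusted p = 0.0351), and the mean effect of -0.92 ± 0.09 passed as well (adjusted p = 0.000163). The mean effect passed in every fit that left out 1 array. The difference was lost in 11 of those 15 fits, all but those without WT bud replicate 2, K14WT replicate 2 or K14-PTHrP replicates 2 or 3 (adjusted p = 0.0513 to 0.126). Ptch1 was the only member of the hedgehog list with a name and a kept probe set.

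Besides Glo1, 3 genes had a bud effect that carried the difference or shared it. Fgfr1op2, which encodes a partner found fused to the FGF receptor, read 5.63, 5.72 and 5.80 in WT buds and 6.97, 7.14 and 7.46 in the buds labelled PTHrP-/-, with 6.16, 5.75 and 5.93 in K14WT skin and 6.08, 5.91 and 5.59 in K14-PTHrP skin. Its bud effect was -1.48 ± 0.15 (adjusted p = 0.00216), its skin effect -0.09 ± 0.15 (adjusted p = 0.832) and the difference -1.39 ± 0.21 (adjusted p = 0.0194). The bud groups stood well apart and the skin groups overlapped. The call was lost in 6 of 15 fits, those without WT bud replicates 1 or 2, PTHrP-/- bud replicate 2, K14WT replicates 2 or 3, or K14-PTHrP replicate 1 (adjusted p = 0.0518 to 0.0835).

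Golt1b, which encodes a vesicle transport protein of the Golgi, was the converse in buds. It read 6.84, 6.88 and 6.86 in WT buds and 5.19, 5.0 and 5.05 in those labelled PTHrP-/-. In skin it read 7.98, 7.51 and 7.21 in K14WT and 7.97, 7.02 and 7.44 in K14-PTHrP. WT skin outside the transgenic comparison read 6.29, 6.82 and 6.67, below every array of both these skin groups, although K14WT is also labelled WT ventral skin. The bud effect of 1.78 ± 0.23 (adjusted p = 0.0152) and the skin effect of -0.09 ± 0.23 (adjusted p = 0.895) differed by 1.87 ± 0.32 (adjusted p = 0.0369). The call was lost in 12 of 15 fits, all but those without K14WT replicate 3 or K14-PTHrP replicates 1 or 2 (adjusted p = 0.0513 to 0.139, and 0.0594 without K14-PTHrP replicate 3). Fgfr1op2, Golt1b and Tac1 lie on chromosome 6, as does Pthlh, with 11, 35 and 1080 protein-coding genes between each and Pthlh in the RefSeq order. Whether the bud effects of Fgfr1op2 and Golt1b go with the loss of PTHrP or with their position near its gene was not tested.

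Hacd3, an enzyme of very-long-chain fatty acid elongation, passed for the difference and in neither tissue alone. Its levels were 8.27, 8.22 and 8.31 in WT buds, 7.87, 7.82 and 7.84 in the buds labelled PTHrP-/-, 7.79, 8.05 and 7.92 in K14WT skin and 7.51, 7.71 and 7.67 in K14-PTHrP skin. The groups did not overlap in either tissue, with PTHrP higher in buds and lower in skin. The bud effect was 0.42 ± 0.09 (adjusted p = 0.182), the skin effect -0.29 ± 0.09 (adjusted p = 0.242) and the difference 0.71 ± 0.13 (adjusted p = 0.0448). It was lost in 13 of 15 fits, all but those without K14WT replicate 1 or K14-PTHrP replicate 2 (adjusted p = 0.0525 to 0.166).

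Tac1, Glo1 on its first probe set (1424109_a_at) and both unnamed probe sets given above passed for the difference in every fit that left out 1 array, as did 6 of the 20 in all. These 6 include 1449109_at and 1425894_at, which passed the filter on low values only through the K14-PTHrP arrays and had to differ there. With 1 array left out, the number that passed ran from 7 to 28. Without K14-PTHrP replicate 3 the difference still passed for Nnat at -2.62 (adjusted p = 0.0355), Cpxm2 at -1.86 (adjusted p = 0.0463), Fxyd6 at -1.29 (adjusted p = 0.0355), Fgfr1op2 at -1.53 (adjusted p = 0.00572), Ptch1 at 1.05 (adjusted p = 0.0463) and Glo1 at 2.19 (adjusted p = 0.000585). It was lost without that array for Hacd3, at 0.73 (adjusted p = 0.0525), and for Golt1b, at 1.85 (adjusted p = 0.0594).

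The mean effect picks out genes that moved the same way in both tissues, but also some with a large effect in a single tissue. Of the 77 probe sets that passed for it, 17 also passed for the difference. Among these were Cpxm2, whose arrays overlapped in buds, and Fgfr1op2 and Golt1b, whose arrays overlapped in skin. Of the 77, 68 had the same sign in both tissues, which the average favours by its construction. Of the 77, 50 also had an unadjusted p under 0.05 in each tissue alone, and of these 49 had the same sign, the exception being Glo1, and 39 were larger in skin. Their choice by the average favours the same sign here too. Among all 251 probe sets with such p-values in both tissues, 79.3% had the same sign. In 60 of the 77 the arrays with and without PTHrP did not overlap in either tissue. Their choice by a small p on these same arrays favours this, and the share over all probe sets is not given here. In all, 52 of the 77 carry a name, for 48 genes, and 38 of the 77 passed in every fit that left out 1 array. The probe sets whose arrays are given below are among those 38. So are Sim2, 1425894_at and 1449109_at, which passed the filter on low values only through the K14-PTHrP arrays.

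Ccn2, the matricellular connective tissue growth factor, was the only probe set of the 11690 past the threshold in each tissue alone. It read 5.88, 5.64 and 5.69 in WT buds, 6.67, 6.80 and 6.89 in the buds labelled PTHrP-/-, 5.92, 5.94 and 5.95 in K14WT skin and 3.86, 4.30 and 4.55 in K14-PTHrP skin. PTHrP went with lower levels in both, without overlap. The bud effect was -1.05 ± 0.14 (adjusted p = 0.0203), the skin effect -1.70 ± 0.14 (adjusted p = 4.16e-05) and the mean effect -1.38 ± 0.10 (adjusted p = 2.29e-05), and the difference of 0.66 did not pass (adjusted p = 0.377). Of the other named members of its family, Ccn4 had a bud effect of -0.53 and a skin effect of -0.66, and Ccn3 -0.53 and -0.12, none past the test.

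A pair of surface proteins were also lower with PTHrP. Mme, the peptidase neprilysin, which degrades substance P among other peptides, read 5.37, 5.42 and 5.32 in WT buds, 6.40, 5.44 and 6.23 in the buds labelled PTHrP-/-, 6.61, 5.88 and 6.74 in K14WT skin and 4.81, 4.41 and 4.87 in K14-PTHrP skin, a mean effect of -1.18 ± 0.19 (adjusted p = 0.0111). Its arrays did not overlap in either tissue, although PTHrP-/- bud replicate 2 lay just above the WT buds. Vcam1, a cell adhesion molecule, read 7.76, 7.72 and 7.32 in WT buds, 8.32, 8.07 and 8.38 in the buds labelled PTHrP-/-, 8.84, 7.89 and 8.38 in K14WT skin and 7.19, 6.86 and 7.30 in K14-PTHrP skin, a mean effect of -0.95 ± 0.14 (adjusted p = 0.00879).

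**Figure D3:**
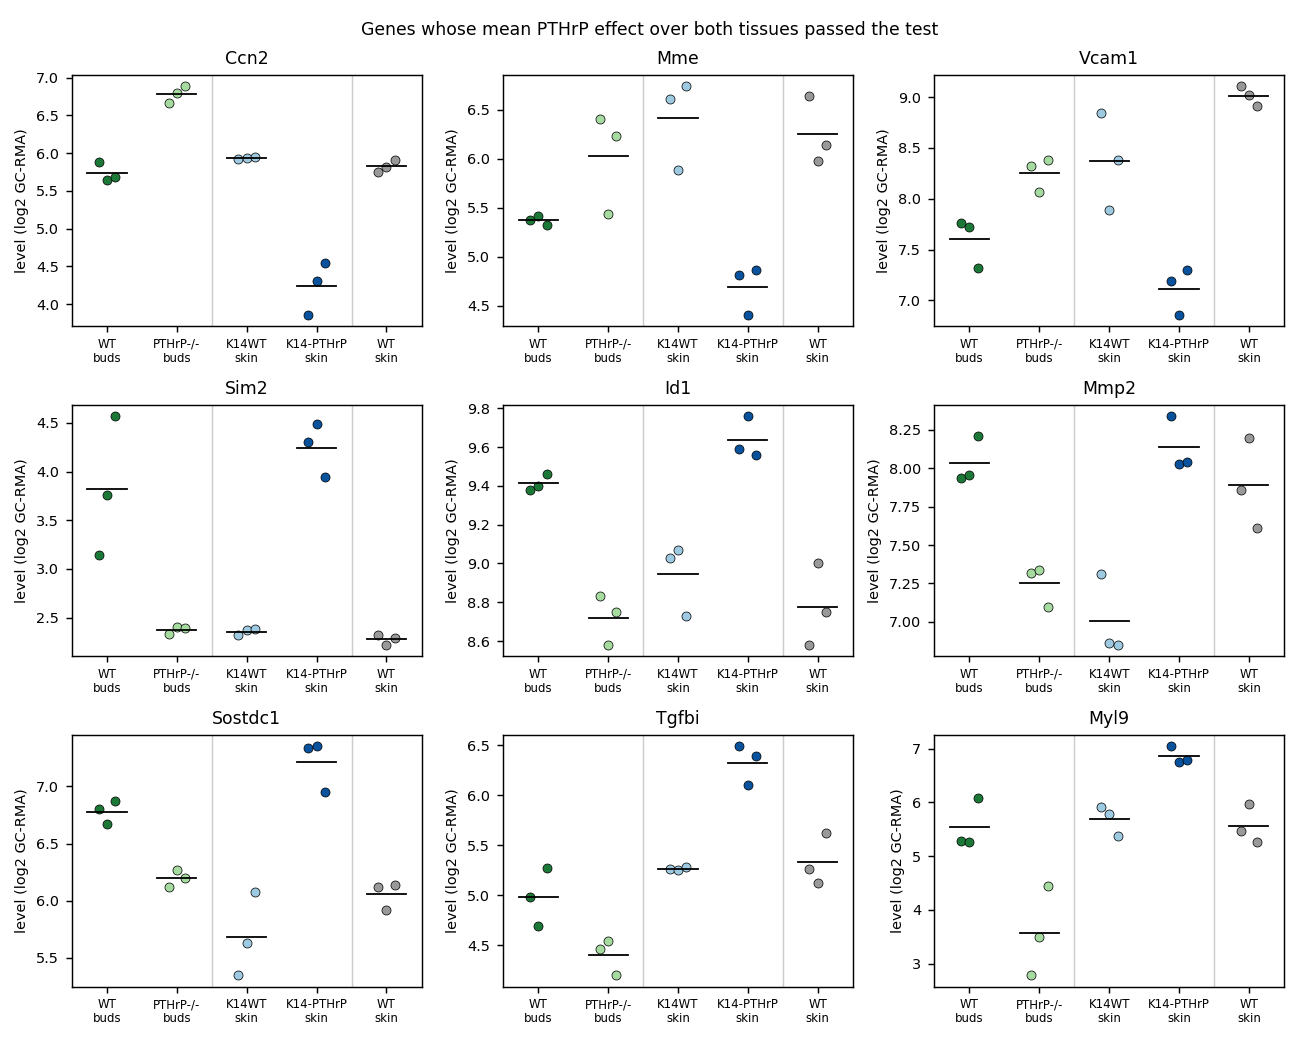
Each panel gives the log2 GC-RMA level of 1 gene that passed for the mean effect, in 3 arrays per group with a line at the group mean; WT skin on the right is outside the comparison. Ccn2, Mme and Vcam1 are lower with PTHrP in both tissues and the other 6 genes higher, and Id1 has a bud effect of 0.69 and a skin effect of 0.69.

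Transcription regulators and secreted antagonists were among the genes higher with PTHrP in both tissues. Sim2, a transcription factor of the bHLH-PAS family, read 3.14, 3.76 and 4.57 in WT buds and 4.30, 4.49 and 3.95 in K14-PTHrP skin, and 2.32 to 2.40 in all 6 arrays without PTHrP, each below its array's median. Its probe set passed the filter on low values only through the K14-PTHrP arrays. The mean effect of 1.67 ± 0.18 (adjusted p = 0.000675) was lost when values below the array median were set to it (adjusted p = 0.405). Id1, an inhibitor of bHLH factors and a target of BMP signalling, read 9.38, 9.40 and 9.46 in WT buds, 8.83, 8.58 and 8.75 in the buds labelled PTHrP-/-, 9.03, 9.07 and 8.73 in K14WT skin and 9.59, 9.76 and 9.56 in K14-PTHrP skin. The groups were apart in both tissues by the same amount, with a bud and a skin effect of 0.69 ± 0.12 each, a difference of 0.01 and a mean effect adjusted p of 0.00227. Sostdc1, a secreted antagonist of BMP and Wnt ligands, was read by 2 probe sets. On 1460250_at it read 6.80, 6.67 and 6.87 in WT buds, 6.12, 6.27 and 6.20 in the buds labelled PTHrP-/-, 5.35, 5.63 and 6.08 in K14WT skin and 7.34, 7.35 and 6.95 in K14-PTHrP skin. The skin effect of 1.53 was larger than the bud effect of 0.58, but the difference did not pass (adjusted p = 0.283), and the mean effect of 1.06 ± 0.12 did (adjusted p = 0.000675). Its other probe set, 1449340_at, had a mean effect of 0.54 ± 0.10 (adjusted p = 0.0267), lost in 7 of the 15 fits that left out 1 array (adjusted p = 0.0555 to 0.0811).

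Several further genes were higher with PTHrP. Mmp2, the gelatinase that cleaves type IV collagen, read 7.94, 7.96 and 8.21 in WT buds, 7.32, 7.34 and 7.10 in the buds labelled PTHrP-/-, 7.31, 6.86 and 6.85 in K14WT skin and 8.34, 8.03 and 8.04 in K14-PTHrP skin. Both tissues were split without overlap, with a mean effect of 0.96 ± 0.12 (adjusted p = 0.00217) on this probe set, 1416136_at, and of 0.67 ± 0.10 (adjusted p = 0.00879) on 1439364_a_at. Tgfbi, an adhesion protein of the matrix induced by TGF-beta, had a mean effect of 0.82 ± 0.12 on 1448123_s_at (adjusted p = 0.006), with WT buds at 4.69 to 5.27, the buds labelled PTHrP-/- at 4.20 to 4.54, K14WT skin at 5.25 to 5.28 and K14-PTHrP skin at 6.10 to 6.49. Palld, which organises actin, rose by 0.94 ± 0.14 (adjusted p = 0.00834), and Myl9, a regulatory myosin light chain of smooth muscle and non-muscle cells, by 1.57 ± 0.24 (adjusted p = 0.00955). Col17a1, a collagen of the hemidesmosomes of basal keratinocytes, rose by 0.52 ± 0.07 (adjusted p = 0.00227). Apoe, the lipid carrier apolipoprotein E, rose by 1.14 ± 0.17 (adjusted p = 0.00879), with a bud effect of 1.53 and a skin effect of 0.74. Of these, Myl9 and Apoe had the larger effect in buds and the rest in skin, and none passed for the difference.

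Some genes that passed for the mean effect held less firmly. Egfl6, an EGF-repeat protein of basement membranes, had a mean effect of -1.03 ± 0.18 (adjusted p = 0.0215), which was lost without WT bud replicates 2 or 3, any 1 PTHrP-/- bud array or K14WT replicate 3 (adjusted p = 0.0556 to 0.0724). Pcbp4, an RNA-binding protein, had a mean effect of 1.59 ± 0.30 (adjusted p = 0.0303), lost in 8 of 15 fits (adjusted p up to 0.0999), which are those without any 1 WT bud array, PTHrP-/- bud replicates 1 or 2, WT skin replicate 1 or K14WT replicates 2 or 3. Rspo1, a secreted enhancer of Wnt signalling, had a mean effect of 1.30 ± 0.26 (adjusted p = 0.0384) with a skin effect of 2.03 and a bud effect of 0.56, and passed in only 3 of the 15 fits, those without K14WT replicate 1 or K14-PTHrP replicates 2 or 3 (adjusted p up to 0.111 in the others).

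**Figure D4:**
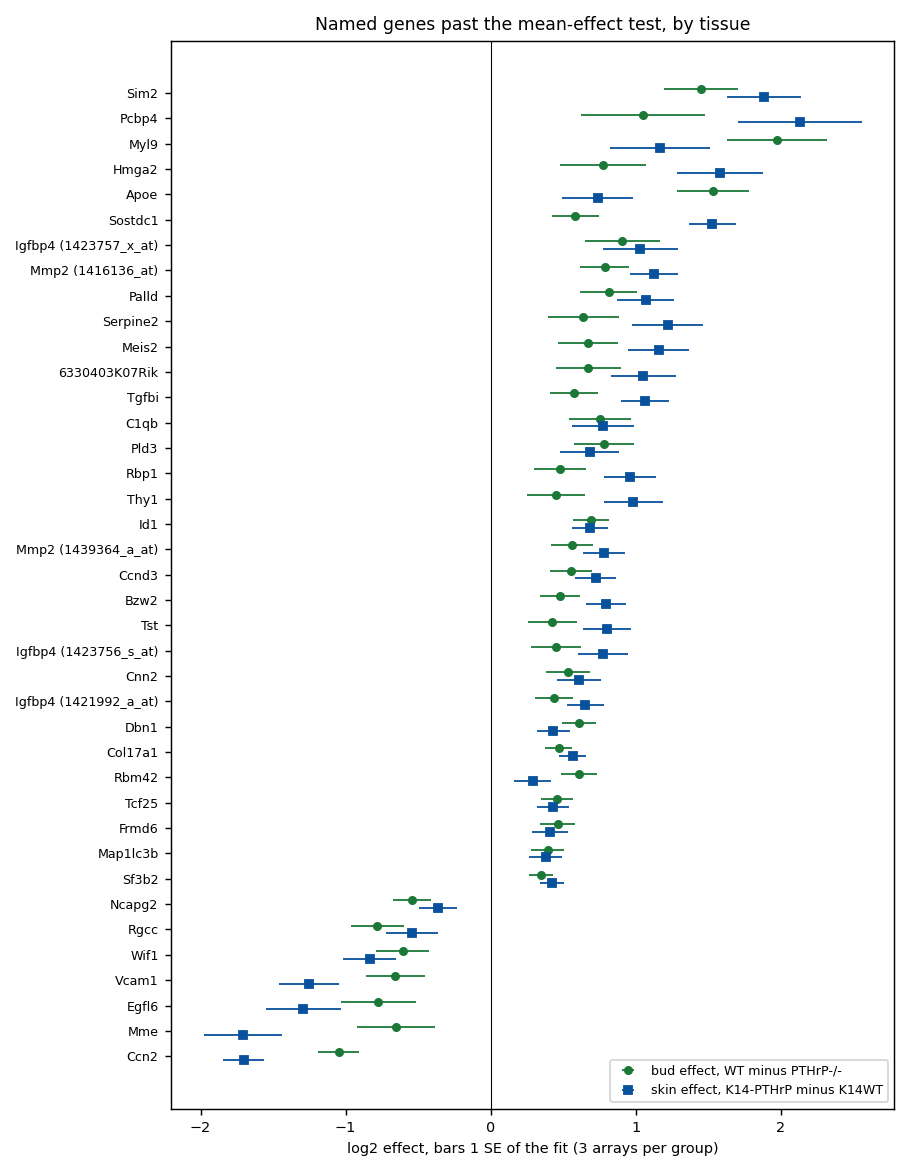
The bud effect (circles) and skin effect (squares) in log2 units, with bars of 1 SE of the fit, for the 39 named probe sets of 36 genes that passed for the mean effect and not for the difference and had an unadjusted p under 0.05 in each tissue. Of these, 32 are higher with PTHrP and 7 lower, and 28 have the larger effect in skin.

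Across all 11690 probe sets the 2 effects were weakly related (Pearson's r = 0.160, Spearman's rho = 0.203, as a description over probe sets, which are not replicates and were normalized together). The sign was the same for 58.8%, with 3582 higher in both and 3294 lower in both. Among the 251 probe sets with an unadjusted p under 0.05 in each tissue, 79.3% had the same sign, with 148 higher in both, 51 lower in both, 44 higher in buds and lower in skin and 8 the reverse. With 1 array of the 4 groups left out, r over all probe sets ran from 0.083, without K14WT replicate 3, to 0.258, without K14WT replicate 2.

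The difference between the tissues passed for a member of 3 gene lists. Of 28 lists, 27 had a named member, and it passed for Ptch1 of the hedgehog list (1 of 1), Cpxm2 of the matrix proteases and inhibitors (1 of 9) and Tac1 of the neuropeptides and their peptidases (1 of 3); in the other 24 lists it passed for 0 of 250 genes by limma, against 0.171% of all probe sets, a share so low that few or no calls among 250 genes say nothing about the lists. Of these 250 genes, 94 had an unadjusted p under 0.05 for the difference, as did 1077 of all 11690 probe sets, but the bud arrays that gave the genes their names are part of that contrast. The mean effect passed for 0.659% of all probe sets and for 46 of all 1892 named genes (2.43%), 35 higher and 11 lower, and the lists are read against these. It passed for 2 of 6 genes of the BMP pathway (Id1 and Sostdc1, both higher), where the median bud effect was 0.44 and the median skin effect 0.50, beside medians of 0.03 and -0.01 over all probe sets and 0.34 and 0.06 over all 1892 named genes. Of 7 Wnt pathway genes it passed for Rspo1 and Sostdc1, higher, and Wif1, a secreted Wnt inhibitor, lower. Of the 9 matrix proteases and inhibitors, Cpxm2, Mmp2 and the protease inhibitor Serpine2 were higher and Mme lower. Of 18 extracellular matrix genes 2 were higher and 1 lower, and 7 of the 18 had a positive mean effect, with a median of -0.07. Of 9 mesenchyme markers it passed for 3, all higher, namely Mmp2, the surface glycoprotein Thy1 and the matrix proteoglycan Vcan. As a group these markers did not stand out: 6 of the 9 had a positive mean effect. Their median was 0.08, beside 0.16 over all named genes, and their summed level overlapped between the groups in both tissues. Without WT bud replicate 2 the calls of Wif1, Serpine2, Thy1, Vcan and the brighter Sostdc1 probe set were lost (adjusted p = 0.0621 to 0.0791), and each was lost in 5 to 10 of the 15 fits that left out 1 array. Of 5 genes of the cyclic AMP and immediate early response it passed for 0 by limma, with 3 at an unadjusted p under 0.05, and Egr1 had a bud effect of 0.95 and a skin effect of 0.09.

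A positive bud effect beside a less often positive skin effect was common among named genes: 1359 of the 1892 had a positive bud effect and 1114 a positive skin effect. In the gene groups that follow no member passed for the difference. Of 17 skeletal muscle genes 16 had a positive bud effect, with a median of 0.51, and 5 a positive skin effect, with a median of -0.06. Of 13 genes of mammary and simple epithelium 12 had a positive bud effect (median 0.60) and 4 a positive skin effect (median -0.09). In this group Krt8, a keratin of simple epithelia, had the smallest adjusted p for the difference, with a bud effect of 0.67, a skin effect of -0.46 and a difference of 1.13 (adjusted p = 0.0968). The median bud and skin effects were 0.34 and -0.05 for 40 genes of the respiratory chain and ATP synthase, 0.22 and -0.08 for 48 ribosomal protein genes, and 0.39 and 0.10 for 20 proteasome genes. Positive bud effects numbered 36 of 40, 35 of 48 and 17 of 20 in these groups, and positive skin effects 13 of 40, 15 of 48 and 13 of 20. Without K14-PTHrP replicate 3 the median skin effect was -0.28 for the muscle genes, -0.13 for the epithelial genes, -0.13 for the respiratory genes, -0.10 for the ribosomal genes and -0.01 for the proteasome genes. The authors' lists chose most of these members for a difference between the bud groups, so their bud effects are not independent of that choice: no named ribosomal gene had a bud effect under 0.17 in size, whereas the skin effects came as close to 0 as 0.001.

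**Figure D5:**
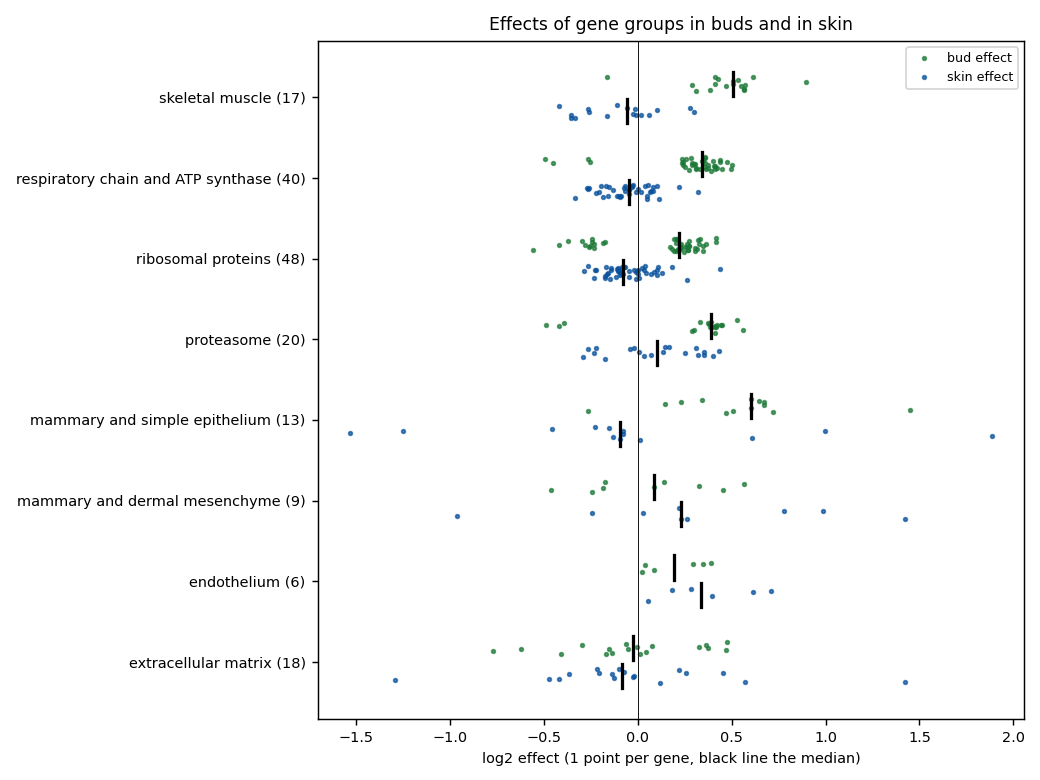
The bud and skin effects in log2 units of the named members of 8 gene groups, 1 point per gene, with the number of genes in brackets and a black line at the median. The medians of skeletal muscle lie at 0.51 in buds and -0.06 in skin, and the gap without points around 0 in the bud effects of ribosomal and respiratory chain genes follows from the choice of named genes.

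The summed linear level of the 17 muscle genes was 14005 to 15037 in WT buds, 9807 to 11824 in the buds labelled PTHrP-/-, 18629 to 25533 in K14WT skin and 12921 to 22174 in K14-PTHrP skin. The sum of the 13 epithelial genes was 5577 to 5865, 3901 to 5147, 2989 to 4121 and 2807 to 3474 in the same order, so the tissue labelled as bud had the higher epithelial sum in WT arrays, and that sum also separated the bud groups. The sum of 3 basal keratinocyte genes was 6624 to 7552, 5395 to 5765, 3749 to 5076 and 4353 to 6079. None of these sums lay near 0 in any group. The summed levels of muscle, epithelial and basal keratinocyte genes were thus higher in WT buds than in those labelled PTHrP-/-. So were the sums of smooth muscle, epidermal differentiation and adipocyte genes. Those of mesenchyme, erythroid, endothelial, leukocyte and melanocyte genes overlapped between the bud groups. The authors' lists chose most named genes for a difference between these bud groups, so the separation is not independent of that choice. The part of these genes in the differences between tissues was not tested. In such bulk samples, fewer cells of a type and less RNA per cell cannot be told apart.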

How the data were processed

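Expression was measured on 15 arrays in 5 groups of 3, grouped by the labels. The deposited value table holds log2 expression levels of 22690 probe sets, which the authors normalized with GC-RMA per the file headers; MAS5 and affy appear, with no version, in the submitters' processing notes. The deposited lists give an intensity per group on a linear scale and a fold score between groups, per the file headers, and served only for gene names. Of 2416 listed probe sets, 2323 were matched by Entrez ID to RefSeq symbols (assembly GRCm38.p6); 755 symbols were updated, and 2381 had a name. The other probe sets had none here.

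From the table, 64 controls were left out and a probe set had to exceed the median of its array on 3 or more of 15 arrays, which left 11690. Array medians ran from 3.86 to 4.05, and no further normalization was applied. limma 3.58.1 in R 4.3.3 fitted the 5 group means over 15 arrays (10 residual degrees of freedom) with eBayes without trend. Tests were two-sided, with a Benjamini-Hochberg threshold of 0.05 in each of 4 comparisons. The fit was tested on simulated data. A gene in a list is read by its brightest kept probe set. Summed levels add linearized values. Promoter windows are the 250 bases before the start in the RefSeq table. Alternatives varied the arrays, filter, scaling, floor, weights and replicate block.

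The members, gene lists and naming rule (the largest differences, list members by smallest p, the largest mean effects, Pthlh and Pth1r) were chosen with earlier results of these data known. Apoe, Id1, Col17a1, Tgfbi, Palld, Mmp2 and Sostdc1 were described after their values were seen. Tables and figures were made with Python 3.11.15, pandas 2.3.3 and matplotlib 3.10.9.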

Additional observations from a re-analysis of the deposited data

Results flagged for a closer look

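The bud and skin effects of PTHrP differed for 20 probe sets by the test of the difference between them. The named ones, with the bud effect minus the skin effect in log2 units, are Tac1 (-3.43), Nnat (-2.78), Cpxm2 (-1.92), Fxyd6 (-1.41), Fgfr1op2 (-1.39), Hacd3 (0.71), Ptch1 (1.04), Golt1b (1.87) and Glo1 (2.20). Of the unnamed ones, 1418507_s_at stood at -3.01 and 1423933_a_at at -2.05.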

How the results depend on the processing

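No effect past its threshold changed direction under any alternative. Of 152 results for a named gene or probe set, 13 had the other sign under some alternative, all differences between tissues far from the threshold (lowest adjusted p = 0.82), among them Ramp2, Col9a1, Id3, Des, Ccn4 and Fst. Of 3799 values for the 152, 3412 stayed on the same side of the threshold, 371 fell short of it, and 16 newly passed. The counts moved more. For the difference between tissues (20 probe sets), a fit on the 12 arrays alone gave 13 and array weights gave 206, with all 20 among them. Array weights gave 234 for the bud effect (4), 1352 for the skin effect (83) and 2355 for the mean effect (77). The weights, fitted with 3 arrays per group, were uneven, from 0.221 for K14-PTHrP replicate 3 to 4.47 for K14WT replicate 3. How stable they are was not tested. Median centring gave 148 for the mean effect. With 1 array left out, the counts ran from 7 to 28 for the difference, 1 to 6 for the bud effect, 48 to 210 for the skin effect and 38 to 211 for the mean effect. For the difference, the count moved by over 1.5 times without WT bud replicates 1, 2 or 3 (8, 10 and 12), PTHrP-/- bud replicates 1, 2 or 3 (9, 7 and 12), WT skin replicates 1 or 2 (12 and 13), K14WT replicates 2 or 3 (10 and 9) and K14-PTHrP replicate 1 (11). The bud effect had 1 call without WT bud replicates 2 or 3 or PTHrP-/- bud replicates 1 or 2. The skin effect had 210 calls when K14WT replicate 1 was left out and 175 when K14-PTHrP replicate 2 was. It had 55 and 52 without WT bud replicates 1 and 2, 50 without PTHrP-/- bud replicate 2, 54 without WT skin replicate 1, and 53 and 48 without K14WT replicates 2 and 3. The mean effect had 211 and 140 calls with those same arrays left out, K14WT replicate 1 and K14-PTHrP replicate 2. It had 39 and 43 without WT bud replicates 2 and 3, 51, 38 and 50 without PTHrP-/- bud replicates 1, 2 and 3, and 46 without K14WT replicate 3. Chosen after seeing the data, a fit without WT skin and K14-PTHrP replicate 3 gave 10 for the bud effect. The correlation of the effects was 0.220 with no filter on low values, and 0.083 to 0.258 with 1 array left out. The cause of these shifts was not tested.

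Replicate numbers are shared between groups, but the labels tie no number to a litter or batch. Correlations of same-numbered deviations were -0.02, -0.05 and 0.26 between the bud groups and 0.31, 0.18 and -0.14 between the skin groups, so the numbers were not taken to pair the compared arrays. Between the buds labelled PTHrP-/- and K14WT skin they were 0.278, 0.296 and 0.143, each the best match. These groups meet in the difference between tissues, with opposite signs, and in the mean effect, with the same sign. With the replicate number as a block, 10 probe sets passed for the difference, all among the 20, and 65 for the mean effect. The named calls not kept were Cpxm2 (adjusted p = 0.0582), Fgfr1op2 (0.0566), Golt1b (0.0793), Ptch1 (0.0877) and Hacd3 (0.0939).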
